A study of Mus musculus with 18 samples.

Results

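Voltage-gated, inward-rectifier and leak potassium channel genes were followed across a pair of mouse mammary carcinoma cell lines, AT-3 and E0771. Of 99 gene symbols in the count table that begin with Kcn, 85 were taken as members. The 9 calcium-activated channel genes (Kcnma1, the Kcnmb genes and the Kcnn genes) and 5 antisense or overlapping transcripts were left out. The members are 17 voltage-gated pore genes of the Kcna to Kcnd subfamilies, 10 modifier subunits (Kcnf, Kcng, Kcns and Kcnv), 8 Kcnh genes, 5 Kcnq genes, 15 inward rectifiers (Kcnj), 14 tandem-pore leak channels (Kcnk), 3 genes of the Kcnt and Kcnu subfamilies, and 13 auxiliary genes (Kcnab, Kcne, Kcnip and Kcnrg). The whole table holds 32286 entries.

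The RNA came from 18 libraries in 6 groups of 3. Each line carried a doxycycline-inducible construct that was empty (EV), expressed wild-type MRTFA, or expressed MRTFA Y238A, a form described as unable to bind SRF. SRF is a DNA-binding transcription factor, and MRTFA is a partner that it needs to activate cytoskeletal and muscle genes and that free actin holds back. All groups, the EV controls included, received doxycycline at 2 µg/ml for 48 hours. The stated purpose was to ask how binding of MRTFA to SRF bears on the stiffness of cancer cells, and the series title names cytoplasmic calcium and potassium. The labels do not say whether replicates were separate cultures or whether a line was clonal, so p-values measure the spread between these libraries, which may be technical.

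Potassium channels let potassium ions cross the plasma membrane and set the resting membrane potential. Voltage-gated channels open on depolarization, inward rectifiers pass current best near the resting potential, and tandem-pore channels give a leak that is open at rest. Modifier subunits do not form working channels alone but join Kcnb subunits, and auxiliary proteins alter the trafficking or gating of the pore.

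Total counts per library ran from 81265466 to 115260128. The construct was checked through the MRTFA entry of the count table, whose level is given in CPM (counts scaled to library size). It stood at 5433 ± 1444 CPM with wild-type and 2104 ± 195 CPM with Y238A in AT-3, and at 761 ± 91.1 and 320 ± 37.4 CPM in E0771, against at most 0.115 CPM in any EV library. The protein form and its level, and the line and that level, cannot be told apart. The libraries farthest from the rest of their group were replicate 1 of wild-type AT-3 and replicate 2 of Y238A E0771, and no pair of libraries agreed within counting noise. Transcripts of AT-3 were seen at a median of 1.36% of their AT-3 level in E0771 EV replicate 2, 0.549% in E0771 wild-type replicate 2 and 0.243% in E0771 Y238A replicate 1, over 240 genes. In the other direction, 86 genes of E0771 stood at medians of 0.0544% to 0.271% in the AT-3 libraries, highest in those with wild-type. A set of 13 genes induced in AT-3 by wild-type MRTFA stood at 1.13% of that level in AT-3 Y238A replicate 1, 0.259% in replicate 2 and 0.110% in replicate 3. The 86 E0771 genes stood at 0.0898% in that replicate 1. Whether the 13-gene signal was carried over or a weak response to Y238A was not tested. This library and the 3 E0771 libraries above are called the 4 of highest carry-over, though the source of the signal is not known. Of 8 mammary epithelial markers, 3 were higher and 2 lower in AT-3 EV than in E0771 EV. Krt8 averaged 0.0573 CPM in AT-3 EV and 317 CPM in E0771 EV, Epcam 0.760 and 2.02, Krt19 3.88 and 0.0399, and Krt14 6.83 and 1.81. The sum of these markers was 14.5 to 15 CPM in AT-3 EV, 49.7 to 51.6 with wild-type and 77.1 to 95.0 with Y238A, and in E0771 307 to 332, 577 to 691 and 379 to 403. Most of the E0771 sums was Krt8, at means of 317, 622 and 387 CPM. In AT-3 most of the sum was Krt19 with wild-type (33.5 CPM) and with Y238A (69.5 CPM). Markers of leukocytes (6 genes), fibroblasts (6), endothelium (4) and neurons (8) were summed per library. Leukocyte sums were 3.30 to 4.10 CPM in AT-3 EV, 22.1 to 22.4 with wild-type and 70.2 to 75.5 with Y238A, and in E0771 3.10 to 4.73, 2.89 to 3.45 and 11.7 to 17.4. Most of that sum was Cd68, while Ptprc and Cd3e averaged at most 0.159 CPM in any group. Fibroblast sums were 394 to 418 CPM in AT-3 EV, 205 to 228 with wild-type and 208 to 217 with Y238A, and 140 to 154, 95.9 to 102 and 223 to 252 CPM in E0771. Endothelial sums stayed between 0.939 and 3.73 CPM in all libraries. Neuron sums were 62.9 to 65, 14.6 to 17.4 and 42.8 to 45.7 CPM in AT-3 and 26.9 to 40.4 CPM in E0771, nearly all Map2 and Tubb3, with Snap25 at 0 counts in 5 of the 6 groups and 2 counts in the other. The part of these shifts in the channel results was not tested, and in bulk RNA fewer expressing cells and less RNA per cell cannot be told apart.

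Most members were scarce. A mean of at least 1 CPM in at least 1 of the 6 groups was reached by 17 members, 34 peaked between 0.1 and 1 CPM, and 34 stayed under 0.1 CPM. A low-count filter left 46 members to test and 39 untested. A member high in only 1 group could pass through that group, so counts and medians of change favour rises there. The filter kept 8 of 17 voltage-gated pore genes, 5 of 10 modifiers, 5 of 8 Kcnh, 3 of 5 Kcnq, 6 of 15 Kcnj, 8 of 14 Kcnk, 1 of 3 Kcnt and Kcnu, and 10 of 13 auxiliary genes. Levels are means ± SD of 3 libraries on TMM-scaled library sizes. Changes are log2 fold changes ± SE from edgeR's quasi-likelihood test over 17841 genes, called at a Benjamini-Hochberg adjusted p under 0.05.

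**Figure D1:**
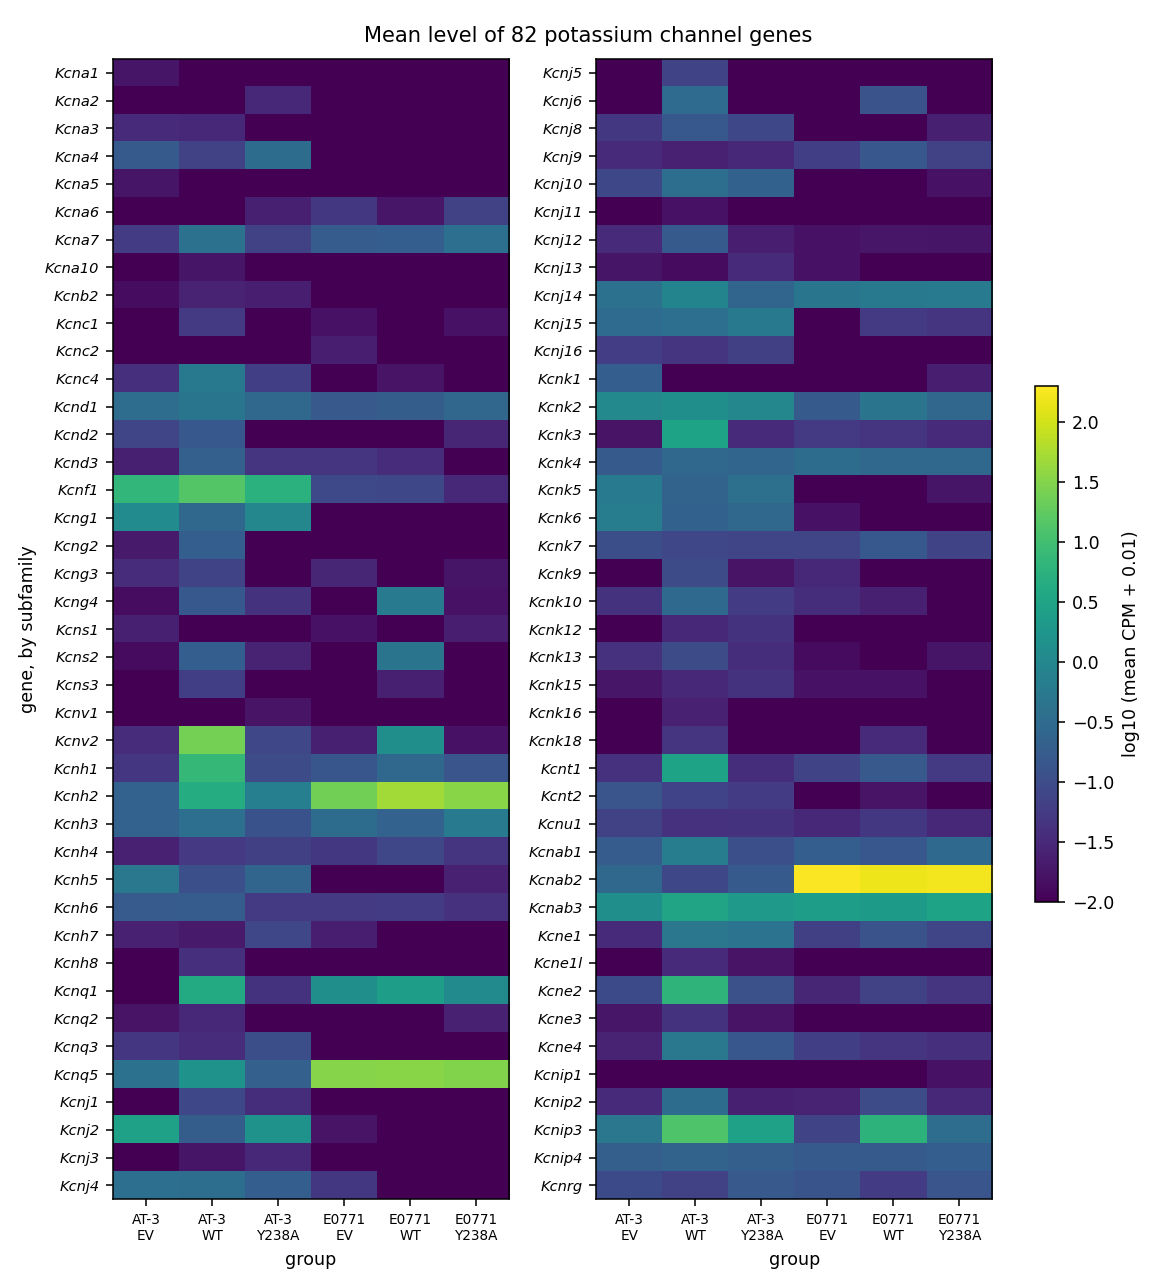
Mean level of 82 of the 85 potassium channel genes in the 6 groups, as log10 of mean CPM plus 0.01, with rows ordered by subfamily. Kcnab2, Kcnh2 and Kcnq5 were the bright rows of E0771, and Kcnv2, Kcnf1 and Kcnip3 those of AT-3 with wild-type MRTFA.

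The empty-vector lines carried different channels. In AT-3 EV the highest level per kilobase of exon was Kcnf1, a modifier subunit, at 1.46 ± 0.188 CPM per kb, followed by the inward rectifier Kcnj2 at 0.529 ± 0.114 and the beta subunit Kcnab3 at 0.481 ± 0.129. Kcnf1 stood clear of the others, while the ranges of Kcnj2 and Kcnab3 overlapped. In E0771 EV the order was Kcnab2, a beta subunit of voltage-gated channels, at 33.7 ± 0.145 CPM per kb, then Kcnh2, the ERG channel that repolarizes heart muscle, at 4.92 ± 0.512, and Kcnq5, an M-current pore, at 4.31 ± 0.283. The ranges of Kcnh2 and Kcnq5 overlapped.

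Of 46 tested members, 17 were higher and 7 lower in AT-3 EV than in E0771 EV (52.2%), where 72% of all genes tested were called, 36.8% higher and 35.2% lower. The member median was 0.47 on the log2 scale, against 0.01 over all genes. With bounds it was 0.45, over 43 members. Bounds replaced fitted values where a group had 0 counts, and members at or under 3 counts in both groups were left out. Of the tested genes, 4 of 6 Kcnj, 4 of 8 Kcnk and 2 of 5 modifiers were called, all higher in AT-3. Most of these were near absent from E0771 EV and passed the filter through AT-3 groups, which largely set their direction. The split and the median of the members carry the same limit. Kcnf1 gave 7.75, 6.0 and 7.25 CPM in the AT-3 EV libraries and 0.0192, 0.116 and 0.0980 CPM in E0771 EV, a log2 difference of 6.49 ± 0.30 (adjusted p = 7.79e-14). Kcnh2 gave 0.278, 0.169 and 0.198 CPM against 26.2, 21.2 and 24.1 CPM, a difference of -6.79 ± 0.15 (adjusted p = 1.17e-18). No library of either line came near the other for these genes. Kcnab2 was lower in AT-3 by a log2 difference of -9.45 ± 0.21 and Kcnq5 by -6.32 ± 0.24. Kcnq1, a slowly activating pore of heart and epithelia, had 0 counts in AT-3 EV and was at least 121-fold lower there. Kcng1, another modifier, had 0 counts in every E0771 library and was at least 117-fold higher in AT-3 EV. Kcnj2 was 430-fold higher by counts (95% counting interval 119 to 3561, on 2 counts in E0771). Those counts lay in EV replicate 2, the E0771 library with the most carried-over AT-3 signal. The fitted difference of 8.50 became 11.09 without that library. The leak channel Kcnk5 and the Kcnh5 pore were at least 56.6-fold and at least 52.8-fold higher in AT-3 EV. The Kcnh1 difference of -1.77 ± 0.67 lost its call without EV replicate 1 (adjusted p = 0.0793) or 3 (0.0708) of AT-3, or without EV replicate 1 (0.0604) or 3 (0.0619) of E0771.

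**Figure D2:**
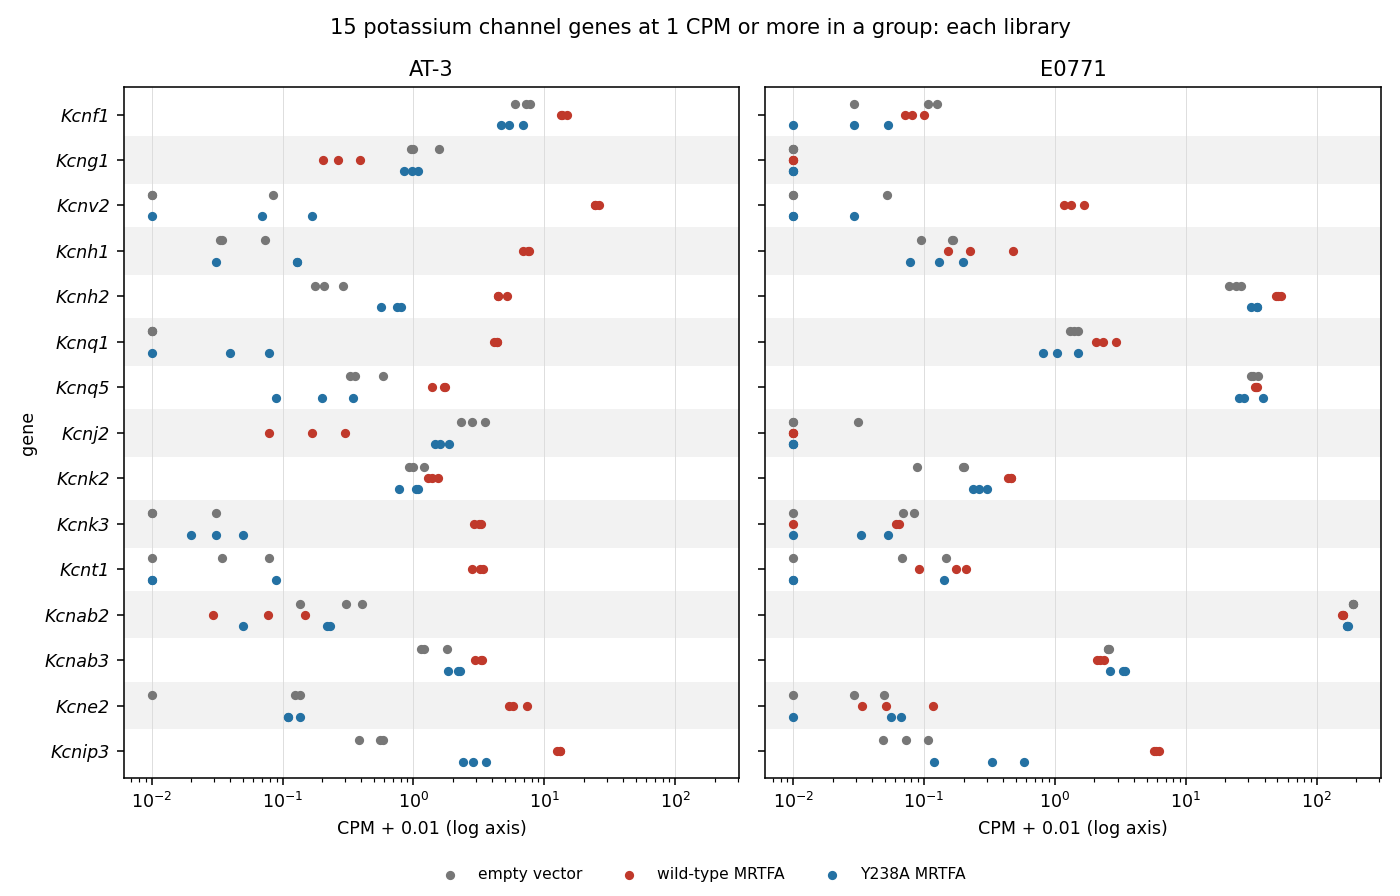
Each point is 1 library: CPM plus 0.01 on a log axis for 15 of the 17 genes that reached 1 CPM in a group, with AT-3 at left and E0771 at right. In AT-3 the wild-type points of Kcnv2, Kcnh1, Kcnq1, Kcnk3, Kcnt1 and Kcne2 stood apart from those of EV and Y238A, and in E0771 those of Kcnv2 and Kcnip3 did. Other genes, such as Kcnip3 in AT-3 and Kcnh2 in E0771, were also separated, by smaller gaps.

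Wild-type MRTFA in AT-3 raised pore-forming, modifier and auxiliary genes. Some were near absent from EV, while others, such as Kcnf1 and Kcnab3, were already present there. Of 46 tested members, 26 rose and 5 fell (67.4%), where 68.6% of all genes tested were called. The share called was thus near the background. By direction, 36.4% of all genes rose and 32.2% fell. The member median was 1.55 on the log2 scale and that of all genes 0.07. Some members passed the filter only through the wild-type group, such as Kcnk3 (2 counts in EV, 869 with wild-type) and Kcnc4 (8 and 150). Such members enter as rises, so the split and the median do not measure a shift of the family. Of the 17 members at 1 CPM or more, 12 rose and 3 fell, and each of these 15 calls held under every alternative run for it. Of the 16 scarcer called members, 7 lost the call under at least 1 alternative.

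The modifier subunits gave the highest level. Kcnv2, which pairs with Kcnb pores and is best known from photoreceptors, gave 0, 0 and 0.0743 CPM in EV and 24.5, 26.2 and 24.4 CPM with wild-type MRTFA. The wild-type libraries were close together and far above every EV library. The fitted change was 10.01 ± 0.55 (adjusted p = 2.46e-11), which rests on 6 EV counts in replicate 3 and became 14.23 without that library. Kcnf1 gave 7.75, 6.0 and 7.25 CPM in EV and 13.4, 14.9 and 13.7 CPM with wild-type, a rise of 1.0 ± 0.19 (adjusted p = 9.78e-05). Kcng1 went the other way, from 1.56, 0.990 and 0.941 CPM to 0.194, 0.254 and 0.383 CPM, a change of -2.07 ± 0.42 (adjusted p = 0.000543). Neither pair of groups overlapped. Kcng4 and Kcns2 also rose, to 0.141 ± 0.0625 and 0.186 ± 0.0911 CPM from 1 count each in EV. Their folds by counts were 37.6 (interval 6.38 to 1523) and 49.8 (interval 8.57 to 2006).

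Among voltage-gated pores, Kcna7, Kcnc4 and Kcnd3 rose by 3.08 ± 0.91, 4.10 ± 0.95 and 3.63 ± 1.20, to levels of at most 0.539 CPM. The Kcnd3 call was lost without EV replicate 1 (adjusted p = 0.0590) or 3 (0.0576), and its change became 7.25 without EV replicate 2. The Kcna7 change became 4.96 without EV replicate 1.

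Both abundant Kcnh genes rose. Kcnh1, the EAG pore often detected in tumours, gave 0.0231, 0.0632 and 0.0248 CPM in EV and 7.59, 6.92 and 7.43 CPM with wild-type, a change of 7.54 ± 0.52 (adjusted p = 6.28e-11). Kcnh2 gave 0.278, 0.169 and 0.198 CPM in EV and 5.19, 4.38 and 4.39 CPM with wild-type, a change of 4.44 ± 0.17 (adjusted p = 4.46e-15). The groups were far apart for both genes. Kcnh5 fell from 0.524 to 0.102 CPM (-2.34 ± 0.78, adjusted p = 0.0141), a call lost without EV replicate 1 (adjusted p = 0.0916).

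Promoter sequence was read from RefSeq windows on GRCm38.p6, each 250 bases before to 50 bases after a start site. There were 85 such windows for 61 of the 85 members. The CArG box, the DNA element bound by SRF, was sought on both strands. It matched in 0 of the 85 member windows and in 1.63% of 32851 windows of all genes. With at most 1 mismatch, 15 member windows of 14 genes matched, against 21.1% of all windows. Kcnh1 held such a match, CCAATAAAGC, 188 bases before its start. The motif GGGCGG, on either strand, was in 41 member windows and in 35.7% of all windows. TGANTCA, an AP-1 motif, was in 4 member windows (7.81% of all), GGAATG, a TEAD motif, in 13 (14.7%), and CANNTG, the E-box, in 65 (72.3%). A match is a description of letters, and these windows cover little of each locus. Shown are the 250 bases before the starts of Kcnh1, chr1:192190527-192190776 on the plus strand, and Kcnh2, chr5:24329592-24329841 on the minus strand. Both genes rose from low levels in AT-3. The Kcnh2 start is an internal one. Its annotated gene spans 24319589 to 24351604 on the minus strand, so the stretch lies within the gene, and no window covered the upstream end. The stretches run 5′ to 3′ along the gene, with the near match to the CArG box and each GGGCGG, on either strand, in capitals.
Kcnh1: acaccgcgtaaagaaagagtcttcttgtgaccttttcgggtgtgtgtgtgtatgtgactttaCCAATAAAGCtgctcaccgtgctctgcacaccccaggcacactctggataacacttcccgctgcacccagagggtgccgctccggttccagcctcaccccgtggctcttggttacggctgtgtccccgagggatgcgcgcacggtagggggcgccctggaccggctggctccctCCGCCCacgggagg
Kcnh2: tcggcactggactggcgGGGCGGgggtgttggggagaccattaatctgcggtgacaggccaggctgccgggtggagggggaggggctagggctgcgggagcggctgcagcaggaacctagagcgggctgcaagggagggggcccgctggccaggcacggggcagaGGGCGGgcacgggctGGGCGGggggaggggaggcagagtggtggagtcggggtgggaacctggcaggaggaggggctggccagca
Kcnh1 held the near match and 1 GGGCGG in this stretch, and Kcnh2 held 3 GGGCGG and no near match.

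Kcnq1 and Kcnq5 also rose. Kcnq1 gave no count in any AT-3 EV library and 4.08, 4.32 and 4.30 CPM with wild-type MRTFA, at least 369-fold higher (adjusted p = 3.47e-11). Its exons overlap 121 bases of the antisense transcript Kcnq1ot1, which gave 2.85, 3.61 and 2.44 CPM in EV and 23.4, 5.45 and 4.21 CPM with wild-type (1.90 ± 0.59, adjusted p = 0.0112). Without wild-type replicate 1 that change was 0.70 and was not called (adjusted p = 0.114). Whether counting used strand is not given in the sources used here, so reads of the shared bases cannot be told apart. Kcnq5 gave 0.578, 0.316 and 0.347 CPM in EV and 1.74, 1.38 and 1.70 CPM with wild-type (1.96 ± 0.28, adjusted p = 7.32e-06).

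The inward rectifiers did not move one way. Kcnj2, the Kir2.1 pore that holds the resting potential of muscle, was the abundant one and fell. It gave 2.31, 2.78 and 3.54 CPM in EV and 0.291, 0.0692 and 0.158 CPM with wild-type, with no overlap (-4.02 ± 0.45, adjusted p = 5.93e-07). The change became -4.64 without wild-type replicate 1. Kcnj14 rose by 1.17 ± 0.37 to 0.877 CPM and Kcnj10 by 2.19 ± 0.73 to 0.352 CPM. The Kcnj14 call was lost without wild-type replicate 1 (adjusted p = 0.0503), and that of Kcnj10 without EV replicate 1 (0.0644) or wild-type replicate 1 (0.0640) or 3 (0.0585). Kcnj6, a G-protein-gated rectifier, went from 0 counts to 0.306 CPM, at least 27.0-fold higher. Its exons overlap 380 bases of Gm41505 on the opposite strand, which rose from 0.0248 to 7.02 CPM in AT-3 and from 0 counts to 1.49 CPM in E0771, so reads of these bases cannot be told apart either. The 250 bases before the start of Kcnj2, chr11:111065914-111066163 on the plus strand, are given to set beside those of the Kcnh genes, with the same capitals.
Kcnj2: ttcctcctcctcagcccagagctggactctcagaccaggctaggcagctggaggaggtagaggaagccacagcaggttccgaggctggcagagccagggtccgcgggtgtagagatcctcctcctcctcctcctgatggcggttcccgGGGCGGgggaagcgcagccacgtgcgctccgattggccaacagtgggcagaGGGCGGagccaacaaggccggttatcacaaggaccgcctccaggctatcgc
The Kcnj2 stretch held 2 GGGCGG and no near match to the CArG box.

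Of 8 tested leak channels, 2 rose, 1 fell and 5 were not called, where 36.4% of all genes tested rose and 32.2% fell. Kcnk3, the acid-sensitive TASK channel, had 2 counts in EV and gave 3.28, 2.89 and 3.15 CPM with wild-type, 409-fold higher by counts (interval 113 to 3380, adjusted p = 2.32e-08). Kcnk10 rose by 3.16 ± 1.07 to 0.289 CPM, a call lost without EV replicate 2 (adjusted p = 0.0648). Kcnk1 went from 0.183 ± 0.0587 CPM to 0 counts and was at least 17-fold lower. Kcnk2, the mechanosensitive TREK pore, gave 1.19, 0.980 and 0.916 CPM in EV and 1.38, 1.29 and 1.53 CPM with wild-type. Those groups did not overlap, but the difference of 0.44 ± 0.28 did not pass (adjusted p = 0.168). Kcnt1, the sodium-activated pore, gave 0.0694, 0 and 0.0248 CPM in EV and 3.37, 2.80 and 3.22 CPM with wild-type (6.61 ± 1.04, adjusted p = 2.61e-05).

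Of 10 tested auxiliary genes, 7 rose and 1 fell, where 36.4% of all genes tested rose and 32.2% fell. The limit of the filter holds for this split too. Kcnip3, a calcium-binding partner of Kcnd channels that also acts as the repressor DREAM, gave 0.578, 0.548 and 0.371 CPM in EV and 12.5, 13 and 13.3 CPM with wild-type (4.69 ± 0.30, adjusted p = 2.02e-11). Kcne2, a single-span partner of Kcnh2 and Kcnq1, gave 0.116, 0.126 and 0 CPM in EV and 7.39, 5.80 and 5.38 CPM with wild-type (6.20 ± 0.55, adjusted p = 3.98e-09). The wild-type libraries lay far above EV for both. Kcnab3 rose by 1.21 ± 0.19, from 1.38 ± 0.370 to 3.19 ± 0.225 CPM. Kcne1, the partner of Kcnq1 in heart, rose by 4.38 ± 0.82 to 0.502 CPM, and Kcne4, Kcnip2 and Kcnab1 rose to between 0.317 and 0.624 CPM. The Kcnip2 call was lost without EV replicate 2 (adjusted p = 0.0532) or 3 (0.0503), with a change of 7.93 in place of 3.71 without EV replicate 1, and that of Kcnab1 without wild-type replicate 2 (0.0663). Kcnab2 gave 0.393, 0.126 and 0.297 CPM in EV and 0.0194, 0.138 and 0.0675 CPM with wild-type. It fell by 1.88 on the log2 scale (SE 0.55, adjusted p = 0.00687), although the groups overlapped, and the change was -2.76 without wild-type replicate 2. In the AT-3 EV libraries Kcnab2 stood at 0.0672% to 0.209% of its E0771 EV level and with wild-type at 0.0103% to 0.0735%. The E0771 genes near absent from AT-3 stood at medians of 0.0770% to 0.122% in the same EV libraries and 0.202% to 0.271% with wild-type, and their part in the Kcnab2 call was not tested. Below are the 250 bases before the farthest upstream of the 3 Kcnip3 starts, chr2:127522095-127522344 on the minus strand, shown because Kcnip3 was called in both lines with both constructs. Capitals mark TGANTCA.
Kcnip3: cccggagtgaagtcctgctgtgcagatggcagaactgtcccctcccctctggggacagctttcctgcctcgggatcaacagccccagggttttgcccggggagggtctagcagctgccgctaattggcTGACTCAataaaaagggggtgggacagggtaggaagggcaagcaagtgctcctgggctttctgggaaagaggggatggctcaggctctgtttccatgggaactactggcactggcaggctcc
The Kcnip3 stretch held 1 TGANTCA and no GGGCGG, and its near match to the CArG box, CCAAAAAGGG, lay 8 bases after the start, outside the letters shown.

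Summed over the 72 alpha subunit genes, pores and modifiers together, the level went from 4.13 ± 0.325 CPM per kb in AT-3 EV to 15.1 ± 0.274 with wild-type. Modifiers made up 1.74 ± 0.232 of the EV sum and 8.05 ± 0.343 of the wild-type sum. Kcnv2 led the wild-type order at 4.90 ± 0.204 CPM per kb, ahead of Kcnip3 at 3.65 ± 0.106, Kcne2 at 3.50 ± 0.601 and Kcnf1 at 2.93 ± 0.169. Kcne2 overlapped both Kcnip3 and Kcnf1.

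**Figure D3:**
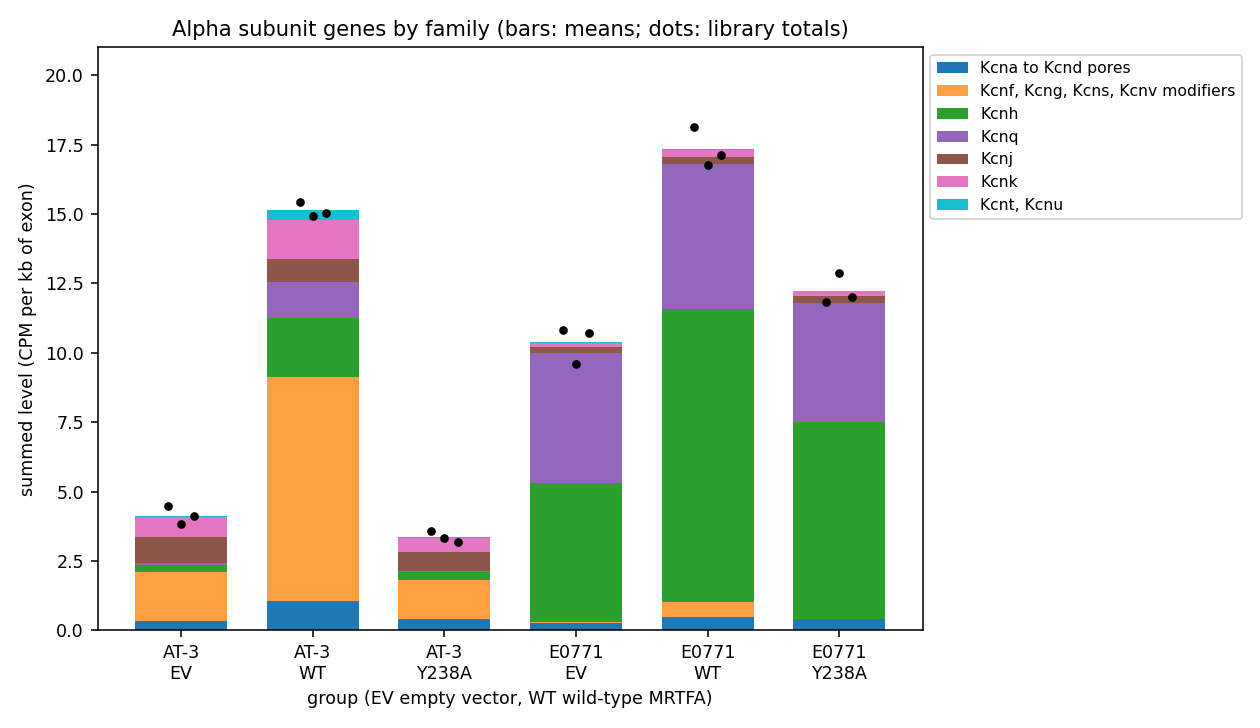
Summed level of the 72 alpha subunit genes in CPM per kb of exon, stacked by family: bars are means of 3 libraries and dots the library totals. With wild-type MRTFA the AT-3 total was 15.1 and mostly modifiers, and the E0771 total was 17.3 and mostly Kcnh and Kcnq.

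Y238A MRTFA changed fewer members in AT-3. Of 46 tested, 6 rose and 3 fell (19.6%), where 43.7% of all genes tested were called, 21.4% higher and 22.2% lower. Members had a median of 0.19, or 0.38 with bounds over 45 of them, and all genes 0.01. The smallest p-values among the rises were those of Kcnip3, Kcnh2 and Kcne1. This comparison and that of wild-type share the EV libraries. Kcnip3 gave 3.58, 2.39 and 2.83 CPM, above all EV libraries (2.55 ± 0.29, adjusted p = 4.83e-07). Kcnh2 gave 0.794, 0.560 and 0.734 CPM (1.70 ± 0.21, adjusted p = 1.39e-06). Kcne1 reached 0.377, 0.580 and 0.315 CPM (4.13 ± 0.82, adjusted p = 0.000304). Kcnip3 stood between its EV and wild-type levels, while Kcne1 stood near its wild-type level of 0.504, 0.484 and 0.518 CPM.

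Kcnab3 rose by 0.60 ± 0.19 (adjusted p = 0.0136), a call lost without EV replicate 2 (adjusted p = 0.0674), EV replicate 3 (0.0709), Y238A replicate 1 (0.0521) or the 4 libraries of highest carry-over (0.0734). Kcnk1 had 0 counts with Y238A as with wild-type and was at least 18.1-fold lower than EV. Kcnd2, a transient-current pore, also had 0 counts and was at least 6.78-fold lower, on 18 EV counts, a call lost without EV replicate 1 (adjusted p = 0.0586). The remaining calls rested on few counts. Kcnq1 gave 0.0695, 0.0300 and 0 CPM with Y238A, highest in replicate 1, where the set of genes induced by wild-type also stood highest. It was at least 2.95-fold higher than EV (adjusted p = 0.0191), and lost its call without Y238A replicate 1 (adjusted p = 0.108), EV replicate 2 (0.0513) or the 4 libraries of highest carry-over (0.0901). Kcnq5 was lower by a log2 difference of -1.02 ± 0.40 (adjusted p = 0.0463), a call lost under 17 of 26 alternatives, with an adjusted p of up to 0.23 without EV replicate 1. Kcnj2 gave 1.45, 1.60 and 1.85 CPM, below every EV library, but its difference of -0.82 ± 0.37 was not called (adjusted p = 0.0921). It was called with AT-3 fitted alone (-0.81, adjusted p = 0.0187) and with a stricter filter (0.0489). Kcnv2 (0.159, 0.0600 and 0 CPM), Kcnh1 (0.119, 0.120 and 0.0210), Kcnk3, Kcnt1 and Kcne2 were not called with Y238A. Kcnv2 was called without EV replicate 3 (5.86, adjusted p = 0.0400). Its Y238A level was highest in replicate 1, where the set of genes induced by wild-type also stood highest. Its wild-type mean was 25.0 CPM. The part of carried-over signal in that call was not tested.

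Compared directly in AT-3, 24 members were higher and 3 lower with wild-type than with Y238A (58.7%), where 66.2% of all genes tested were called, 34.8% higher and 31.4% lower. Kcnv2 differed by 8.37 ± 0.46, Kcnq1 by 6.92 ± 0.44, Kcnk3 by 6.96 ± 0.73, Kcnt1 by 6.79 ± 1.05, Kcnh1 by 6.36 ± 0.46 and Kcne2 by 5.82 ± 0.53. Without Y238A replicate 1, the Kcnt1 difference became 11.22, that of Kcnv2 9.61 and that of Kcnq1 7.99. Among the Y238A libraries of AT-3 it held the most signal of genes induced by wild-type, from a source that is not known. Kcnip3 and Kcnh2, which Y238A raised, still differed by 2.14 ± 0.25 and 2.74 ± 0.13. Kcnj2 and Kcng1 were lower with wild-type by -3.21 ± 0.44 and -1.79 ± 0.42 (Kcnj2 by -3.83 without wild-type replicate 1), and Kcna4 by -2.32 ± 0.86, a call that 7 of 25 alternatives did not keep. Over all tested members the median was 1.87, or 1.91 with bounds over 45 of them, against 0.05 for all genes. The limit of the filter given for wild-type against EV holds for this median and split too.

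**Figure D4:**
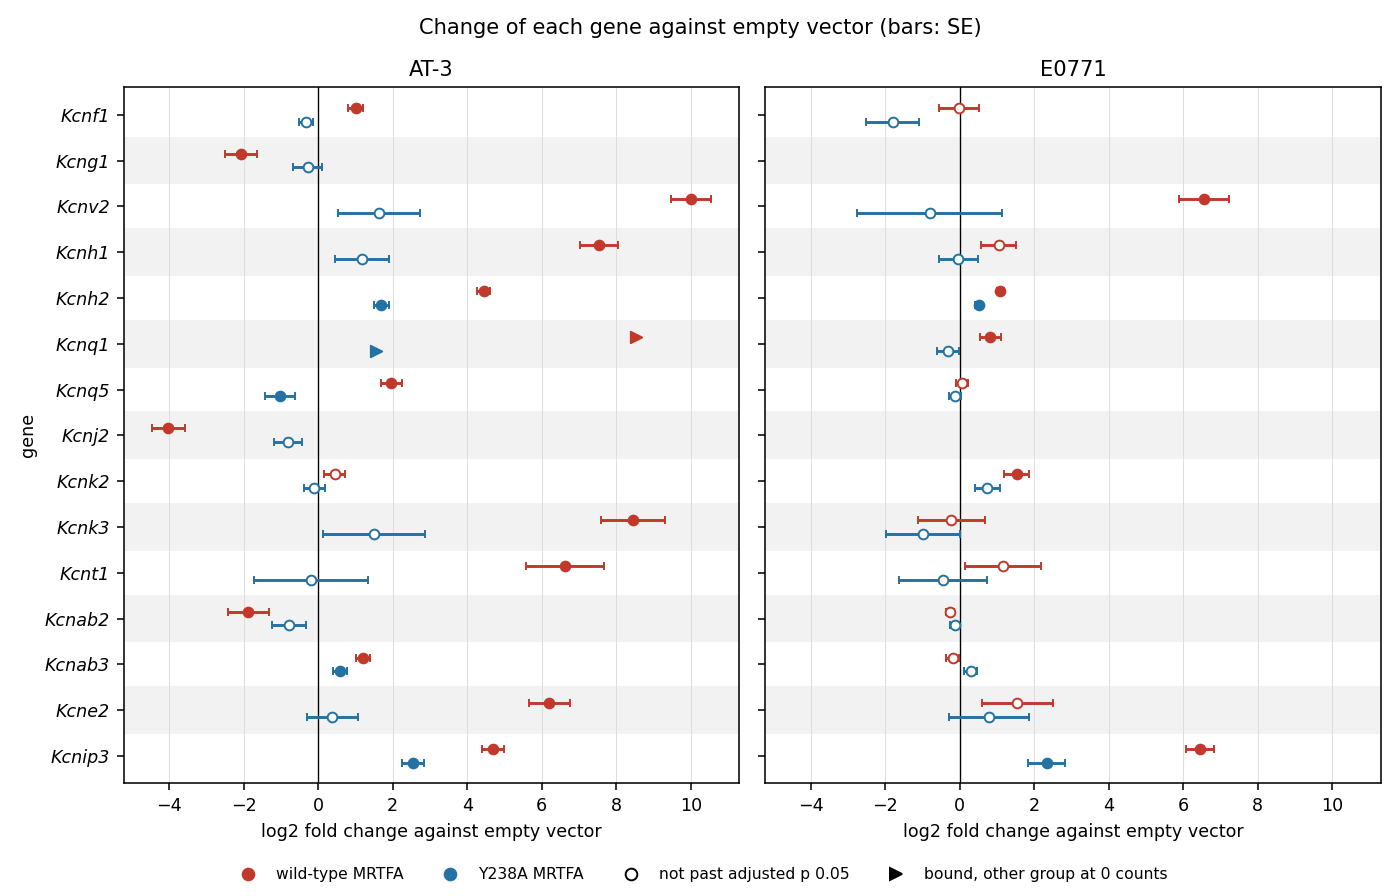
Log2 fold change of 15 genes against EV with SE for wild-type (red) and Y238A (blue) in each line; filled points passed an adjusted p of 0.05, triangles are lower bounds where EV had 0 counts, and no point is drawn where both groups were at or under 3 counts. Wild-type shifts were larger in AT-3 for Kcnh1 and Kcnh2 and reached 6.45 for Kcnip3 in E0771.

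In E0771 wild-type MRTFA raised the ERG pore further and brought up modifiers and Kcnip3. Of 46 tested members, 12 rose and 1 fell (28.3%), where 24.5% of all genes tested were called, 11.2% higher and 13.3% lower. The member median was 0.04 over the 46, against -0.05 for all genes. With bounds it was 0.54, over the 36 members above 3 counts in at least 1 of the groups. Kcnh2 gave 26.2, 21.2 and 24.1 CPM in EV and 53.2, 48.9 and 50 CPM with wild-type (1.09 ± 0.10, adjusted p = 2.27e-08). The groups did not overlap. Kcnip3 gave 0.0385, 0.0632 and 0.0980 CPM in EV and 6.24, 5.66 and 5.88 CPM with wild-type (6.45 ± 0.38, adjusted p = 6.71e-11), from far below the level of Kcnh2 to the fourth place per kilobase.

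Of 5 tested modifiers, 3 rose in E0771, where 11.2% of all genes tested rose. These 3 were near absent outside the wild-type groups and passed the filter through them. They enter as rises, so their number does not measure a shift of the modifiers. Kcnv2 gave 0, 0.0421 and 0 CPM in EV and 1.64, 1.16 and 1.31 CPM with wild-type (6.56 ± 0.68, adjusted p = 1.14e-06), and the fit gave 10.04 without EV replicate 2, the only EV library with counts. Kcng4 and Kcns2 had 0 counts in EV and reached 0.614 ± 0.181 and 0.447 ± 0.208 CPM, at least 61.8-fold and at least 46.8-fold higher. Kcnf1, the leading modifier of AT-3, averaged 0.0777 CPM in EV and 0.0741 CPM with wild-type and was not called.

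Kcnk2 rose from 0.192, 0.189 and 0.0784 CPM to 0.431, 0.448 and 0.452 CPM (1.53 ± 0.33, adjusted p = 0.00180). Kcnj6 and Kcnj15 had 0 EV counts and were at least 11.6-fold and at least 4.44-fold higher, and Kcnj4 fell from 12 counts to 0, at least 3.90-fold lower. Kcnq1 gave 1.28, 1.49 and 1.39 CPM in EV and 2.92, 2.06 and 2.33 CPM with wild-type (0.81 ± 0.28, adjusted p = 0.0441). That call was lost with the replicate number as a block (adjusted p = 0.0702). It was also lost without each E0771 EV library in turn (0.0794 to 0.119), without E0771 wild-type replicate 1 (0.184) or 3 (0.0789), and without 4 of the AT-3 libraries in turn (0.0537 to 0.0563). The Kcnj15 call was lost without any 1 of the E0771 EV libraries, wild-type replicate 1 or the 4 libraries of highest carry-over (adjusted p of 0.0564 to 0.101). The Kcnj4 call was lost without EV replicate 2, any 1 of the wild-type libraries or those 4 (0.0509 to 0.0971).

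Kcnab2 and Kcnq5, both abundant in E0771, were not called. Kcnab2 gave 187, 188 and 189 CPM in EV and 155, 158 and 157 CPM with wild-type, groups that did not overlap. Its difference of -0.26 ± 0.12 was not called when both lines shared 1 fit (adjusted p = 0.126), but was with E0771 fitted alone (-0.21, adjusted p = 0.000678) and without AT-3 Y238A replicate 1 (0.0456). Kcnq5 gave 32.6, 31.3 and 35.5 CPM in EV and 34.4, 33.8 and 35.1 CPM with wild-type (0.06 ± 0.16, adjusted p = 0.865). Kcnab3 and Kcnh1 were not called, with 0.144, 0.469 and 0.214 CPM of Kcnh1 in the wild-type libraries. The alpha subunit sum went from 10.4 ± 0.685 to 17.3 ± 0.723 CPM per kb, of which Kcnh genes gave 5.01 ± 0.546 and 10.6 ± 0.422.

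With Y238A in E0771, 2 members rose and 1 fell of 46 tested (6.52%), where 12% of all genes tested were called, 5.41% higher and 6.64% lower. The member median was 0.04 over the 46, or 0.23 with bounds over 35 of them, against -0.01 for all genes. Kcnh2 gave 35.0, 31.6 and 34.8 CPM, above every EV library and below every wild-type library (0.50 ± 0.09, adjusted p = 0.00138). Kcnip3 gave 0.569, 0.108 and 0.321 CPM (2.33 ± 0.49, adjusted p = 0.00366), also above every EV library. Without the 4 libraries of highest carried-over signal neither passed, at 0.40 (adjusted p = 0.0658) for Kcnh2 and 1.62 (0.0989) for Kcnip3. Kcnj4 had 0 counts and was at least 3.79-fold lower on 12 EV counts, a call lost under 10 of 24 alternatives. Kcnv2 was detected with 2 counts and Kcns2 with none.

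Compared directly in E0771, 9 members were higher and 0 lower with wild-type than with Y238A (19.6%), where 25.7% of all genes tested were called, 12.7% higher and 13% lower. At an unadjusted p under 0.05 there were 15 of the 46 members, and DESeq2, with all 85 members entered, called 12. The shares of all genes by these measures were not taken, so neither count is set against a background. Kcnip3 differed by 4.12 ± 0.30 (4.80 without Y238A replicate 1), Kcnq1 by 1.14 ± 0.29 and Kcnh2 by 0.59 ± 0.09. Kcnv2 was 197-fold higher by counts (interval 54.3 to 1636), Kcng4 87.8-fold (interval 24.0 to 731), and Kcns2 at least 44.3-fold higher. The median was 0.48 over all tested members, or 0.67 with bounds over 38 of them, and -0.02 over all genes.

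The wild-type change was then compared between lines, as the change in E0771 minus that in AT-3. It differed for 17 of 46 members (37%), 5 with the higher value in E0771 and 12 with it in AT-3. Of all genes tested 47.3% were called, 23.3% and 24% in the same order. Some of the 12, such as Kcnk3, passed the filter through AT-3 with wild-type, so the split does not measure a shift of the family. Kcnh2 rose less in E0771 by -3.35 ± 0.20 (adjusted p = 4.36e-11), from an EV level far higher there. Kcnh1 differed by -6.50 ± 0.75, Kcnk3 by -8.68 ± 1.38 (-11.44 without AT-3 EV replicate 2), Kcnt1 by -5.45 ± 1.54 and Kcne2 by -4.66 ± 1.44. These genes rose in AT-3 and were not called in E0771. The Kcnt1 difference was lost without E0771 EV replicate 3 (adjusted p = 0.0961) and with DESeq2 (0.0617), and that of Kcne2 without E0771 EV replicate 3 (0.192). Kcnip3 rose more in E0771, by 1.76 ± 0.54 (adjusted p = 0.0110), lost without E0771 EV replicate 1 (0.0518). For Kcnv2 the difference of -3.45 ± 2.02 did not pass (adjusted p = 0.178), but became -7.67 and passed without AT-3 EV replicate 3 (0.0381), the only EV library of AT-3 with Kcnv2 counts. The Y238A change differed between lines for 5 of 46 members (10.9%), where 25.8% of all genes tested were called (2 members toward E0771 against 12.2%, and 3 toward AT-3 against 13.6%). Kcnh2 differed by -1.19 ± 0.24 (adjusted p = 0.000708).

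The remaining members were reported by class. None of the 34 members under 0.1 CPM in every group passed the filter, so none was tested. Of the 34 that peaked between 0.1 and 1 CPM, 29 were tested and 24 of these were called in at least 1 of the 9 comparisons. All 17 members at 1 CPM or more were tested and called in at least 1. Among all genes tested, 92.5% were called in at least 1, so these counts are near the background. In AT-3 20 members had 0 counts over the EV libraries, 9 with wild-type and 20 with Y238A, and in E0771 38, 40 and 38 did. Detection moved over the whole table too. Entries at 10 or more counts numbered 14248 to 14600 per library in AT-3 EV. They numbered 16629 to 17399 with wild-type and 14905 to 15189 with Y238A. In E0771 they ran from 13911 to 14964. The members at 0 counts are thus not read as a trait of this family. Exons of 20 members overlap those of another counted gene, 1 of them on the same strand (Kcnk4 with Catsperz, 587 bases). For Kcnk2, Kcnk3 and Kcnab3 the opposite-strand partner averaged at most 0.387 CPM in any group.

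Of 28 partners outside the Kcn symbols, such as scaffolds, calmodulins and ubiquitin ligases, 20 were tested. In AT-3 7 rose and 7 fell with wild-type (median -0.17, all genes 0.07), near the 36.4% and 32.2% of all genes, and 6 rose and 3 fell with Y238A (0.10, all genes 0.01), beside 21.4% and 22.2%. In E0771 2 rose and 2 fell with wild-type (-0.01, all genes -0.05), beside 11.2% and 13.3%, and 1 each with Y238A (0.03, all genes -0.01), beside 5.41% and 6.64%. Nedd4l, a ubiquitin ligase that acts on Kcnq and other channels, rose with wild-type MRTFA, with changes of 1.82 ± 0.04 (AT-3) and 0.84 ± 0.04 (E0771). S100a10, which binds the leak channel Kcnk3, changed by -1.14 ± 0.05 (AT-3) and -0.32 ± 0.05 (E0771). Dlg2, a synaptic scaffold, rose by 4.71 ± 0.36 in AT-3, and Sgk1, a kinase that restrains Nedd4l, by 1.45 ± 0.10 in E0771.

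Of 23 genes of potassium cotransport and exchange, 21 were tested. With wild-type 10 rose and 9 fell in AT-3 (median 0.23) and 3 rose and 3 fell in E0771 (0.03). With Y238A 4 rose and 7 fell in AT-3 (-0.14) and 1 each in E0771 (-0.01). The shares and medians of all genes are those given for the partners. Tmem38a, the TRIC-A potassium-permeable channel of the sarcoplasmic reticulum, rose in AT-3 by 2.43 ± 0.15 with wild-type and by 1.05 ± 0.15 with Y238A, and in E0771 with wild-type by 1.36 ± 0.15. Slc24a1, a potassium-dependent sodium-calcium exchanger, had 0 counts in AT-3 EV and 54.0 CPM with wild-type, at least 4722-fold higher. Slc12a3, the thiazide-sensitive sodium-chloride cotransporter, rose by 6.10 ± 0.53 in E0771. Wnk1, a kinase upstream of the cotransporters, rose by 0.81 ± 0.06 and its effector kinase Stk39 fell by 0.70 (SE 0.07) in AT-3 on the log2 scale.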

How the data were processed

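RNA was extracted with RNeasy and libraries were made with the Universal Plus mRNA kit, per the labels' protocols. The authors deposited raw counts per gene for 18 libraries. Per the submitters' processing notes, STAR, featureCounts and GRCm38 were used; versions, annotation release and strand setting are not given in the sources used here. Between 61.9% and 64.6% of nonzero counts were even, as when both mates of a pair are counted, so counting intervals are too narrow. They cover counting error only.

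Members and gene lists were chosen with earlier results of these data known. Genes were filtered with filterByExpr (minimum count 10, minimum total 15), scaled by TMM and tested in edgeR 4.0.16 (R 4.3.3) with robust quasi-likelihood fits of 6 group means over all 18 libraries, 12 residual degrees of freedom. The SE is the log2 fold change over the root of F. Fits were tested on simulated data. Members at 1 CPM or more in a group were described with values, called ones first; other members by counts and ranges, and up to 4 genes of each wider list per comparison by smallest p. Against a group at 0 counts, folds are bounds from 3 counts over the group; with 1 to 3 counts, an exact 95% counting interval is given. Alternatives were DESeq2 1.42.0, other scalings and filters, each line alone, a fold minimum, a replicate block, each library left out, and 4 libraries of highest carried-over signal left out.

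Labels number replicates 1 to 3 in each group. Same-numbered libraries deviated together in every pair only for EV and wild-type in E0771 (correlations over genes of 0.4416, 0.5161 and 0.4236). The labels state no pairing. The main fit left the replicate number out, so its p-values for these groups are unpaired. The replicate block was run only as an alternative. CPM per kb uses merged exon lengths from GENCODE on GRCm38. Proteins were not used here. Results of 3 members are not reported singly here; counts and sums include them.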

Additional observations from a re-analysis of the deposited data

Results flagged for a closer look

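The change against EV differed between the lines, by a test of the difference itself (edgeR, adjusted p under 0.05), for 21 results. All values are E0771 minus AT-3 on the log2 scale. With wild-type MRTFA the smaller value was in E0771 for Kcnq1 (-10.84), Kcnk3 (-8.68), Kcnh1 (-6.50), Kcnt1 (-5.45), Kcne4 (-5.41), Kcnj4 (-4.89), Kcne2 (-4.66), Kcnh2 (-3.35), Kcne1 (-3.28), Kcnab1 (-2.27), Kcnq5 (-1.91) and Kcnab3 (-1.40). It was in AT-3 for Kcnk2 (1.08), Kcnab2 (1.61), Kcnip3 (1.76) and Kcnj15 (4.87). With Y238A the difference was -5.06 for Kcnq1, -3.79 for Kcne1, -1.19 for Kcnh2, 9.78 for Kcnd2 and 10.66 for Kcnk1.

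The Kcnq1, Kcnj15 and Kcnj4 values with wild-type, and the Kcnq1, Kcnd2 and Kcnk1 values with Y238A, rest on a group at 0 counts and depend on the prior count of the fit. Of the 11 wild-type differences given here for members at 1 CPM or more, 6 held under every alternative run. The Kcnk2 difference was lost under 17 of 25 alternatives, with the highest adjusted p of 0.15 without E0771 EV replicate 3. The Kcnab2 difference was lost under 5 of 25, with an adjusted p of 0.131 without AT-3 wild-type replicate 1. All 5 of the scarcer wild-type differences and all 3 scarcer Y238A ones were lost under at least 1 alternative. The Y238A difference of Kcnq1 was lost without Y238A replicate 1 of AT-3 (adjusted p = 0.120) and without any 1 of the 3 AT-3 EV libraries.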

How the results depend on the processing

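No result reversed under any alternative. With a stricter filter (a mean of 50 counts, and 1 CPM or more in 3 libraries), fewer members were tested, and the members called were 14 for wild-type against EV in AT-3, 14 for wild-type against Y238A in AT-3, 7 for wild-type against EV in E0771, 2 for the Y238A change between lines and 11 for the EV lines, against 31, 27, 13, 5 and 24. For Y238A against EV in E0771, DESeq2 called 5 members and the fit without the 4 libraries of highest carried-over signal 1, against 3. Without those libraries the Y238A change between lines had 2 calls, and 3 without E0771 Y238A replicate 1; the cause was not tested.

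Leaving out each library in turn gave 28 to 33 calls for wild-type against EV, 7 to 10 for Y238A against EV and 23 to 29 for wild-type against Y238A in AT-3, and 9 to 14, 2 to 4 and 9 to 12 in E0771. It gave 14 to 17 for the wild-type change between lines, 3 to 6 for the Y238A change and 23 to 27 for the EV lines. With a replicate block the same 9 comparisons had 31, 9, 26, 12, 2, 9, 14, 5 and 19 calls, and the Kcnh1 difference between EV lines had an adjusted p of 0.0898. Beyond E0771 EV and wild-type, same-numbered libraries shared only a number, with correlations from -0.1776 to 0.3902. In that pairing the block changed only the call of Kcnq1 among members at 1 CPM or more. Over all members and alternatives, 3275 of the called values kept their call and 187 did not, and 82 uncalled values gained one. The count filter left 39 members untested. With no filter all 85 were tested and the EV lines had 27 calls, and with DESeq2 29, against 24.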
